A study of Homo sapiens with 8 samples.

Results

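NF-kB is a family of dimeric transcription factors, and the 10 genes described here encode its 5 subunits and 5 of its best-known regulators. The subunits are NFKB1, NFKB2, RELA, RELB and REL. The regulators are the IkB proteins NFKBIA, NFKBIE and NFKBIZ and the ubiquitin enzymes TNFAIP3 and BIRC3. The rule lists them by name and uses no measured value, although the list was drawn up with earlier results of these data known. All 10 were found among the 58302 rows of the deposited count table, and all 10 passed the filter on low counts together with 14133 genes in all. RNA sequencing had been done on DLD1, a human colorectal cancer cell line. The OE-WT cells stably carried a lentiviral construct for wild-type TRMT6 and TRMT61A, the subunits of an RNA methyltransferase that makes N1-methyladenosine. The CTRL cells carried the vector and are labelled as wild type, and both groups were treated with cycloheximide during washing, before the cleared lysate was taken for RNA. Each group has 2 libraries, each sequenced on 2 lanes. The table has a column for each library, and the lanes were taken as summed. The study reported the NF-kB pathway as active in OE-WT cells, from more phosphorylated p65, the RELA product, on western blots. It also reported by RT-qPCR raised mRNA of factors that senescent cells secrete, CCL2, CCL20 and IL-6 among them. An NF-kB inhibitor removed the rise of several such factors. The comparison here addresses mRNA by sequencing and does not measure phosphorylation.

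In resting cells, IkB proteins such as the product of NFKBIA hold RelA and p50, the processed product of NFKB1, in the cytoplasm. Signals from receptors of the TNF, interleukin-1 and Toll families reach the IKK kinase complex, which marks IkB for destruction and so frees the dimer. A separate, noncanonical route uses the kinase NIK and IKK alpha to process p100, the product of NFKB2, into p52, which pairs with RelB. Active NF-kB raises the transcription of several of its own inhibitors, NFKBIA, NFKBIE and TNFAIP3 among them, which closes a feedback loop. Most of this control acts on proteins, which RNA sequencing does not measure.

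NF-kB dimers bind a 10-base element, the kB consensus, and the promoters of the members were searched for it on both strands. RefSeq promoter windows (GRCh38.p14, 250 bases before to 50 after each start) covered 8 members in 13 windows. RELB and NFKBIE have no entry. The consensus was found in 7 of these 8 genes, the exception being RELA, and in 3619 of 27305 genes (13.3%) with a window. A narrower form, with A or T at the sixth base, was found in the same number of members and in 7.09% of all genes. Counted by window, the wider form was present in 9 of 13 windows of the members and in 11.3% of all windows. The match nearest to a start is printed for each of the 7 genes. Farther matches in the windows are not printed, and sequence outside the windows was not searched. Each line gives the strand of the gene, 5′ to 3′, with the match in capitals and 10 bases on either side.
REL (chr2:60881518-60881547, plus strand): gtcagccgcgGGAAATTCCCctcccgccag
NFKBIZ (chr3:101827757-101827786, plus strand): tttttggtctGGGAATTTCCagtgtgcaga
NFKB1 (chr4:102501300-102501329, plus strand): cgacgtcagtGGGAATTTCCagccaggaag
NFKB2 (chr10:102395674-102395703, plus strand): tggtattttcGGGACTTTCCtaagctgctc
NFKBIA (chr14:35404811-35404840, minus strand): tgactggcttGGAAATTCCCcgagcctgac
TNFAIP3 (chr6:137867194-137867223, plus strand): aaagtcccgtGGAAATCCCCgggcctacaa
BIRC3 (chr11:102317339-102317368, plus strand): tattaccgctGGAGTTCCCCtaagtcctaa
The first base of the match lies at -46 from the start in REL, -49 in NFKB1, -55 in TNFAIP3 and -81 in NFKBIA. It lies at -21 from one of the starts of NFKB2, at -135 in BIRC3 and at -223 in NFKBIZ. In REL, TNFAIP3, NFKBIA and BIRC3 the printed match reads as the consensus on the opposite strand. The 10 bases in capitals are the same in NFKBIZ and NFKB1, and the same in REL and NFKBIA. Read on the opposite strand, those of REL and NFKBIA are identical to those of NFKBIZ and NFKB1. A match of these letters is a description and does not show that a factor binds there.

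The overexpressed genes were read first, as a check of the labels. TRMT6 had 210.7 and 180.9 CPM (counts relative to TMM-adjusted library totals) in OE-WT cells and 52.6 and 55.4 CPM in CTRL cells. TRMT61A had 137.5 and 130.4 CPM in OE-WT cells and 58.9 and 56.8 in CTRL cells. Both were higher in 2 of 2 OE-WT libraries, with adjusted p = 8.5e-13 and 1.9e-10 from edgeR's quasi-likelihood test, which is the test of every adjusted p below unless another is named. Counts on genes ranged from 10327498 to 12379671 per library, so that 3 counts, the limit that a count of 0 allows, correspond to 0.233 to 0.302 CPM. All 10 colon epithelial markers examined were expressed, with a summed level of 10880 to 12460 CPM, most of it KRT8 and KRT18. These markers also moved between the groups: 3 rose and 4 fell, among them KRT20 (log2 fold change -1.52), CEACAM5 (-1.34) and CEACAM6 (1.06), and their part in the results was not tested. The 12 markers of immune, fibroblast and endothelial cells summed to 4.72 to 7.93 CPM, and 3 of them were at 0 in every library. Mitochondrial genes took 33.5% and 29.9% of the OE-WT counts and 25.1% and 27.7% of the CTRL counts, and the part of this difference in the results was not tested. The series text speaks of duplicate cultures of 1 line, so a p-value measures the spread between such libraries only.

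In OE-WT cells 2 of the 10 members rose and 2 fell, called at an adjusted p below 0.05. NFKBIZ and REL rose, NFKB2 and RELB fell, and NFKBIA, NFKBIE, TNFAIP3, BIRC3, RELA and NFKB1 did not pass the test. Among all 14133 genes tested, 21.1% were called, 9.44% as higher and 11.6% as lower. The median log2 fold change of the members, OE-WT over CTRL, was 0.01, and that of all genes tested was 0.01. The OE-WT and CTRL values did not overlap for 6 of the 10 members, which is the share found among all genes (60.2%). By the thresholds that the study's methods name, an unadjusted p below 0.05 with an absolute log2 fold change above 1, REL was the 1 member called, against 3.15% of all genes. In bulk RNA, fewer cells that express a gene and less RNA per cell cannot be told apart.

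**Figure D1:**
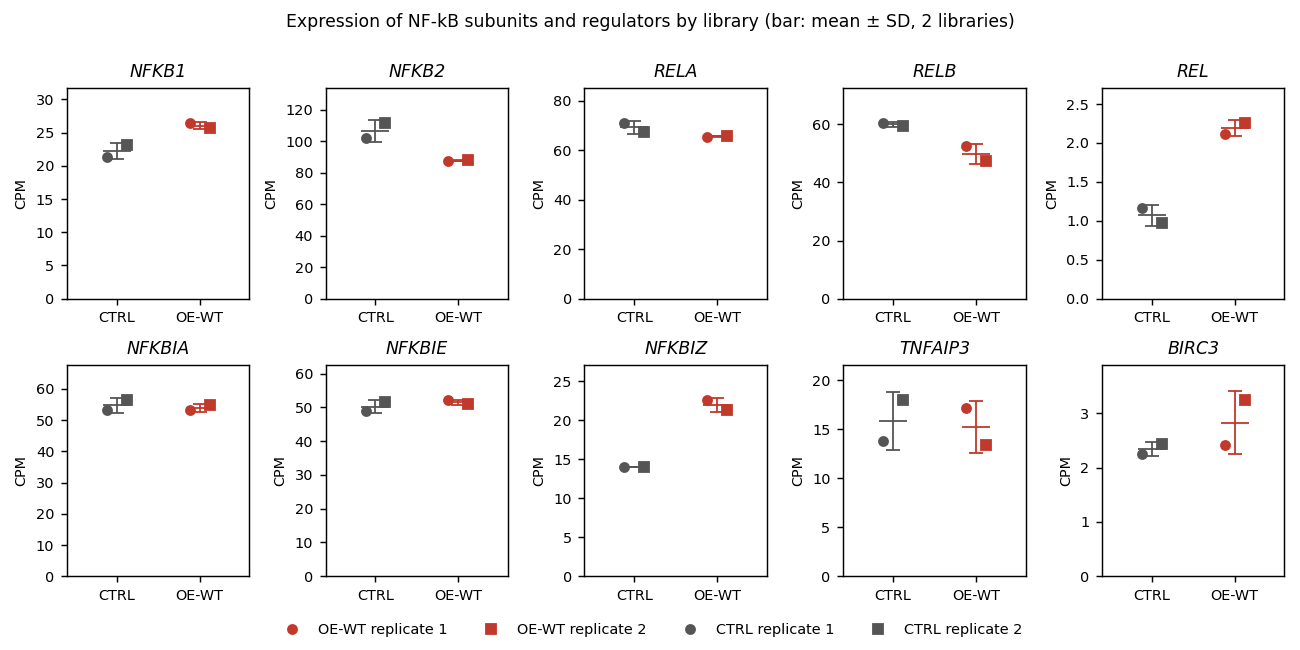
Level of each member in CPM (vertical axes from 0, a different scale in each panel) in the 2 CTRL and 2 OE-WT libraries; points are libraries, and bars are the mean ± SD. NFKBIZ lies near 14 CPM in both CTRL libraries and above 21 in both OE-WT libraries, whereas the NFKBIA, NFKBIE, TNFAIP3 and BIRC3 panels show groups that overlap.

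Among the subunits, the pair of the noncanonical route fell together. NFKB2 (ENSG00000077150, GRCh38 chromosome 10, 102394110 to 102402524) encodes p100, the precursor of p52. It had 87.6 and 88.1 CPM in OE-WT cells and 102 and 111.9 in CTRL cells. Both OE-WT values lay below both CTRL values, and the OE-WT libraries differed from each other far less than the CTRL libraries did. Its level fell by 17.8%, a log2 fold change of -0.28 (SE, its standard error, 0.07, 95% interval -0.43 to -0.14, adjusted p = 0.0064). With CTRL replicate 2 left out, the log2 fold change was -0.21 and the adjusted p 0.0857, and DESeq2's Wald test gave an adjusted p of 0.0502.

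RELB (ENSG00000104856, chromosome 19, 45001461 to 45038192) encodes the subunit that pairs with p52. It had 52.4 and 47.5 CPM in OE-WT cells and 60.6 and 59.3 in CTRL cells, again without overlap. The level fell by 16.7%, a log2 fold change of -0.26 (SE 0.08, 95% interval -0.43 to -0.10, adjusted p = 0.0205). This call was lost without OE-WT replicate 2 (adjusted p = 0.151), without CTRL replicate 1 (adjusted p = 0.0876) and with DESeq2 (adjusted p = 0.149), while the direction held in each.

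The subunits of the canonical dimer, RelA and p50, did not pass the test. RELA (ENSG00000173039, chromosome 11, 65653599 to 65663090) encodes p65, the main transactivating subunit. It had 65.5 and 65.6 CPM in OE-WT cells and 71.1 and 67.2 in CTRL cells. These groups did not overlap, but the gap was smaller than the distance between the CTRL libraries. The log2 fold change was -0.08 (SE 0.07, adjusted p = 0.493), and its 95% interval ran from -0.23 to 0.07.

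NFKB1 (ENSG00000109320, chromosome 4, 102501330 to 102617302) encodes p105, the precursor of p50. It had 26.5 and 25.7 CPM in OE-WT cells and 21.4 and 23.1 in CTRL cells. The OE-WT values were both the higher ones, a log2 fold change of 0.23 (SE 0.11, 95% interval 0.01 to 0.45). The unadjusted p was 0.041 and the adjusted p 0.130, so the difference failed the correction over all genes.

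REL (ENSG00000162924, chromosome 2, 60881491 to 60931612) encodes c-Rel, a subunit best known from lymphoid cells. It was the least abundant member, with 21 and 23 counts in OE-WT cells and 15 and 12 counts in CTRL cells. Scaled to library size these are 2.12 and 2.26 CPM against 1.17 and 0.974 CPM, and the groups did not overlap. The log2 fold change was 1.02 (SE 0.35, adjusted p = 0.0412), with a 95% interval from 0.30 to 1.75. Few counts stand behind this call. It was lost when any 1 of the 4 libraries was left out (adjusted p from 0.125 to 0.190), although the log2 fold change then stayed between 0.90 and 1.16, and DESeq2 gave no adjusted p for it. A lncRNA gene on the same strand (ENSG00000267520) shares 33.3% of the exon bases of REL and is listed at 0 in every library, so reads there may not have been assigned to REL.

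**Figure D2:**
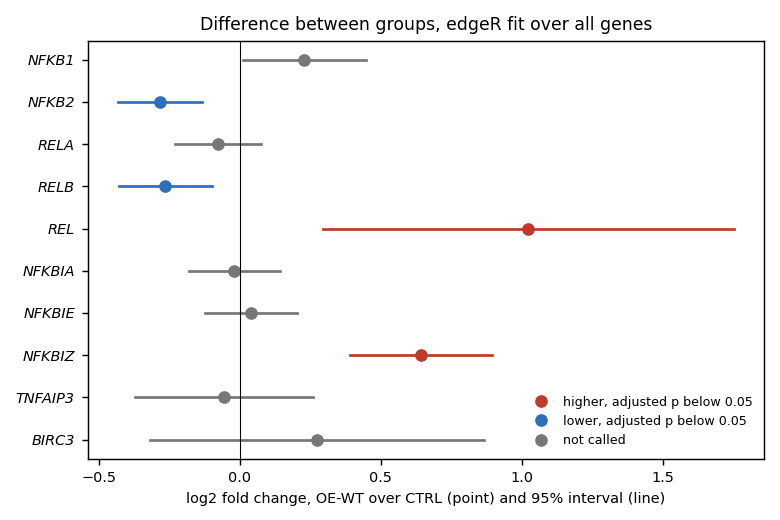
Log2 fold change of each member, OE-WT over CTRL (horizontal axis), from the edgeR fit over all genes, with points for the estimates and lines for the 95% intervals. NFKBIZ (0.64) and REL (1.02) lie above 0, NFKB2 (-0.28) and RELB (-0.26) below, and the interval of REL is the widest of the 10.

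The 3 IkB genes differed among themselves. NFKBIZ (ENSG00000144802, chromosome 3, 101827991 to 101861022) encodes IkB zeta, a nuclear member of the family that acts with p50 as a coactivator at a subset of inflammatory genes. It had 22.6 and 21.3 CPM in OE-WT cells and 14.1 and 14.0 in CTRL cells, from 224 and 217 against 181 and 173 counts. Both OE-WT libraries stood above both CTRL libraries by several times the distance between libraries of a group. The level was 1.56-fold higher, a log2 fold change of 0.64 (SE 0.12, 95% interval 0.39 to 0.89, adjusted p = 0.00063). It was the 1 member still called by edgeR with each of the 4 libraries left out in turn (adjusted p from 0.00022 to 0.0017) and the 1 member called by DESeq2 (adjusted p = 0.0072). NFKBIZ shares 3.29% of its exon bases with NXPE3, a gene on the same strand. NXPE3 had 8.26 and 6.59 CPM in OE-WT cells and 8.55 and 6.49 in CTRL cells and was not called (log2 fold change -0.02, adjusted p = 0.947). The part of the shared bases in the NFKBIZ difference was not tested.

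NFKBIA (ENSG00000100906, chromosome 14, 35401079 to 35404749) encodes IkB alpha, the inhibitor that is degraded and then resynthesized in each round of the canonical response. It had 53.1 and 54.8 CPM in OE-WT cells and 53.1 and 56.3 in CTRL cells. The groups overlapped, and the log2 fold change was -0.02 (SE 0.08, adjusted p = 0.890). Its 95% interval, -0.18 to 0.14, leaves room for differences of that size in either direction. NFKBIE (ENSG00000146232, chromosome 6, 44258166 to 44265788) encodes IkB epsilon, a slower inhibitor of the same loop. It had 52.1 and 51.0 CPM in OE-WT cells and 48.8 and 51.6 in CTRL cells, also with overlap. Its log2 fold change was 0.04 (SE 0.08, 95% interval -0.12 to 0.20, adjusted p = 0.774) and turned to -0.05 when only library size was used for scaling.

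The ubiquitin enzymes of the feedback loop did not pass the test. TNFAIP3 (ENSG00000118503, chromosome 6, 137867214 to 137883314) encodes A20, which edits ubiquitin chains on signalling proteins and so ends the response. It had 17.1 and 13.4 CPM in OE-WT cells and 13.8 and 17.9 in CTRL cells, so that libraries of the same group differed more than the groups did. The log2 fold change was -0.06 (SE 0.15, 95% interval -0.37 to 0.26, adjusted p = 0.837), and its sign changed with the library left out. BIRC3 (ENSG00000023445, chromosome 11, 102317484 to 102339403) encodes cIAP2, a ubiquitin ligase of TNF receptor complexes. It had 2.42 and 3.24 CPM in OE-WT cells and 2.25 and 2.44 in CTRL cells, from 24 to 33 counts per library. Its log2 fold change was 0.27 (SE 0.28, adjusted p = 0.537), and the 95% interval from -0.32 to 0.86 leaves room for a fall as well as a larger rise.

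Ratios of counts within a library do not depend on how libraries are scaled, and they were chosen after the members' values had been seen. For each count of NFKB1, NFKB2 had 3.31 and 3.43 counts in OE-WT cells and 4.77 and 4.84 counts in CTRL cells, a log2 difference of -0.51. The ratio of NFKBIZ to NFKBIA was 0.425 and 0.389 in OE-WT cells and 0.265 and 0.249 in CTRL cells, a log2 difference of 0.66. The ratio of RELB to RELA was 0.800 and 0.724 against 0.852 and 0.883, a log2 difference of -0.19. In each of these the groups were apart, and the direction was unaffected by leaving out any 1 library. The ratio of REL to RELA was 0.0323 and 0.0345 against 0.0164 and 0.0145, a log2 difference of 1.11. NFKBIA to RELA, an inhibitor set against its main partner, gave 0.811 and 0.837 in OE-WT cells and 0.747 and 0.838 in CTRL cells, with overlap. No test was run on these ratios. With 2 libraries a group, an exact permutation test (two-sided) could not have gone below p = 0.333.

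**Figure D3:**
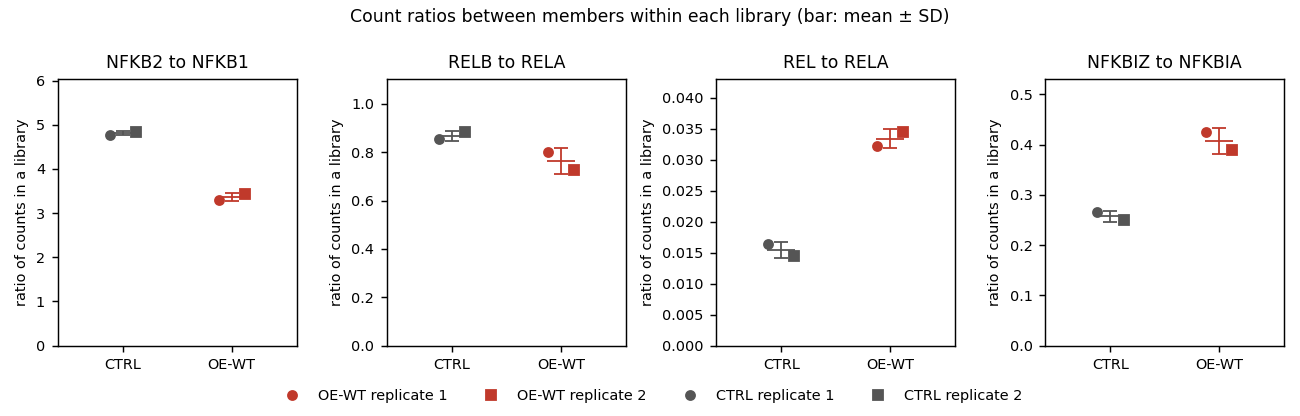
Ratio of the counts of 2 members within each library (vertical axes from 0), for CTRL and OE-WT, with points for libraries and bars for the mean ± SD. The NFKB2 to NFKB1 ratio lies at 4.77 and 4.84 in CTRL and at 3.31 and 3.43 in OE-WT, and the NFKBIZ to NFKBIA ratio stands the other way round.

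Levels of different genes were compared per length, as FPKM (CPM per kilobase of all annotated exons of the gene). The members fell into a high and a low set. RELB (20.2 and 19.8 FPKM in the CTRL libraries), NFKBIE (mean 19.4) and NFKB2 (mean 19.2) headed the order by this length, and their values overlapped. NFKBIA followed with 15.6 and 16.6 FPKM and RELA with 13.0 and 12.3. The low set began with TNFAIP3 (2.13 and 2.78 FPKM) and NFKBIZ (2.38 and 2.38), whose values also overlapped in CTRL cells. In OE-WT cells they did not, since NFKBIZ had 3.82 and 3.61 FPKM and TNFAIP3 had 2.66 and 2.07. NFKB1 came next by this length with 1.36 and 1.48 FPKM in CTRL cells, then BIRC3 with 0.301 and 0.325 and REL with 0.0681 and 0.0569.

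DLD1 cells thus held far more mRNA per length of NFKB2, RELB and RELA than of NFKB1 and REL in both groups. Of the summed FPKM of the 5 subunits, NFKB1 made up 3.60% in both OE-WT libraries, and 2.58% and 2.75% in CTRL cells. The share of RELB was 37.2% and 34.9% against 38.2% and 36.9%, with overlap, and that of NFKB2 was 33.4% and 34.7% against 34.5% and 37.3%, also with overlap. The summed level of the subunits was 47.0 and 45.4 FPKM in OE-WT cells and 52.9 and 53.7 in CTRL cells. The summed level of NFKBIA and NFKBIE was 35.8 and 35.9 FPKM against 34.6 and 36.6. The order within each set depends on the length used. With the longest transcript in place of all exons, NFKB2 had 29.9 and 32.8 FPKM in CTRL cells, RELB 26.8 and 26.3, RELA 22.3 and 21.1 and NFKBIA 20.7 and 22.0, and NFKBIE came last of the high set at a mean of 19.4. In the low set NFKB1 then moved from a mean of 1.42 to 3.16 FPKM, and its values overlapped those of TNFAIP3 (2.53 and 3.30), while NFKBIZ had a mean of 3.58. BIRC3 and REL stayed the lowest by either length.

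**Figure D4:**
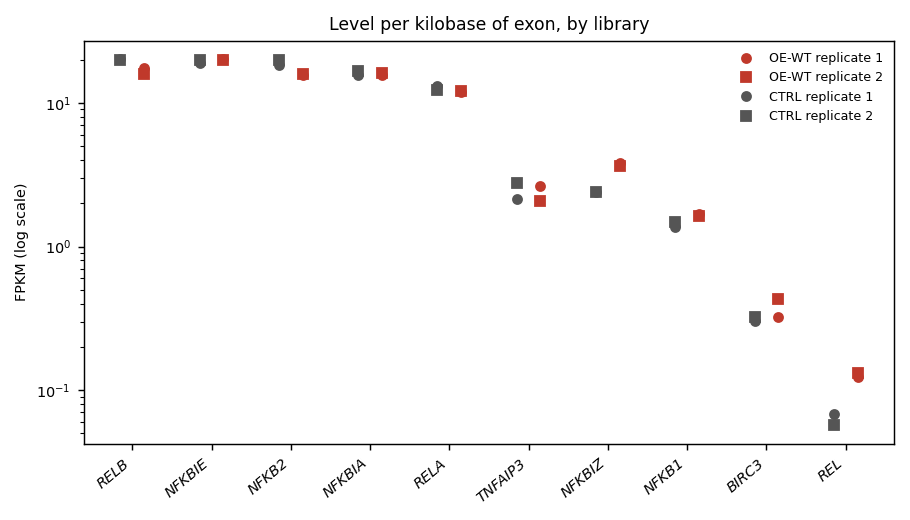
Level per kilobase of exon (FPKM, log axis) of each member in every library, ordered by the CTRL mean; grey marks CTRL and red OE-WT, circles replicate 1 and squares replicate 2. The genes from RELB to RELA, lie above 10 FPKM, and REL is the lowest in all 4 libraries.

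The other genes of the pathway were taken from lists of 8 functional classes, 93 genes in all, of which 92 were matched and 80 passed the filter. At an adjusted p below 0.05, 14 rose in OE-WT cells, 14 fell and 52 were not called, against a share of 21.1% among all genes. Their median log2 fold change was -0.05. Scaling by library size only moved the split to 7 higher and 18 lower, and it shifted the median of all genes to -0.08. The classes are described below from the signal to the target.

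Among the ligands, 4 of 10 passed the filter, and 3 of these fell while none rose. The share called was 75.0%, and the class median was -0.61. IL18, an epithelial cytokine, had 45.6 and 47.5 CPM in OE-WT cells and 64.6 and 68.5 in CTRL cells (log2 fold change -0.52, adjusted p = 6.3e-05). TNFSF15, which encodes TL1A, had 23.5 and 23.9 CPM against 32.5 and 31.7 (log2 fold change -0.44, adjusted p = 0.0027). TNFSF12, which encodes TWEAK, had 5.14 and 5.50 CPM against 7.77 and 9.58 (log2 fold change -0.70, adjusted p = 0.0107), and without CTRL replicate 2 its adjusted p was 0.108. With DESeq2 the adjusted p of TNFSF12 was 0.096. TNF itself, named after its values were seen, had at most 3 counts in any library and was not tested.

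Of 14 receptors, 13 passed the filter, 5 fell and none rose, with a median log2 fold change of -0.29. The share called was 38.5%, against 21.1% of all genes tested. The largest differences were in sparse genes. CD40, a TNF receptor family member that feeds the noncanonical route, had 6 and 10 counts in OE-WT cells and 25 and 25 in CTRL cells (log2 fold change -1.31, adjusted p = 0.0214). The peptidoglycan sensors NOD2 and NOD1 had log2 fold changes of -1.06 and -0.62 (adjusted p = 0.0408 and 0.0387). Of the more abundant receptors, named after their values were seen, TNFRSF1A had 68.3 and 79.0 CPM against 90.9 and 86.2 (log2 fold change -0.27, adjusted p = 0.0175), and DESeq2 gave an adjusted p of 0.115. TNFRSF12A had 196.0 and 211.9 CPM against 265.7 and 232.0 (log2 fold change -0.29, adjusted p = 0.0066). LTBR had 124.5 and 140.2 CPM against 154.1 and 137.0, with overlap, and was not called (log2 fold change -0.14, adjusted p = 0.207). No receptor was called when OE-WT replicate 1 or CTRL replicate 1 was left out. Without CTRL replicate 2 the adjusted p was 0.0839 for CD40 and 0.0502 for NOD1, and without OE-WT replicate 2 it was 0.0743 for NOD2. DESeq2 called 1 of the 13 receptors, and with every gene of at least 1 count 3 were called.

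All 20 adaptors and proximal kinases passed the filter, 3 rose and 2 fell, and the median was 0.19. With library size only, 3 fell and none rose, and DESeq2 called 0 of the 20. TRAF3, which holds NIK at a low level in resting cells, had 45.6 and 41.8 CPM in OE-WT cells and 34.1 and 35.3 in CTRL cells (log2 fold change 0.33, adjusted p = 0.0092). CARD10, a scaffold that joins receptors to BCL10 and MALT1, had a log2 fold change of -0.61 (adjusted p = 0.0059). TRAF1 had a log2 fold change of 0.41 (adjusted p = 0.0452), and this call was lost with a replicate block (adjusted p = 0.0539), under which 3 of the class were called, and held in 1 of 6 alternatives. MYD88, which also rose and was named after its value was seen, had 40.1 and 40.6 CPM against 34.8 and 30.4 (log2 fold change 0.31, adjusted p = 0.0214). MAP3K14, which encodes NIK and was named after its value was seen, had 52.4 and 54.7 CPM against 65.8 and 61.2 (log2 fold change -0.25, adjusted p = 0.0267). The MAP3K14 call was lost with the replicate block (adjusted p = 0.0604), without OE-WT replicate 1 (0.155) and without CTRL replicate 1 (0.218). TRAF3 lost its call with library size only (adjusted p = 0.0639), with DESeq2 (0.0925), and without OE-WT replicate 1 (0.0929) or CTRL replicate 1 (0.0528), and CARD10 lost it with DESeq2 (0.057) and without CTRL replicate 1 (0.0558). TRAF1 lost it without OE-WT replicate 1 (0.384), CTRL replicate 1 (0.184) or CTRL replicate 2 (0.0587).

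Of 5 IKK and related kinases, CHUK, which encodes IKK alpha, was the 1 gene called. It had 9.77 and 7.08 CPM in OE-WT cells and 5.29 and 5.93 in CTRL cells (log2 fold change 0.59, adjusted p = 0.0367). Without OE-WT replicate 1 its log2 fold change was 0.34 (adjusted p = 0.399), and without CTRL replicate 1 it was 0.50 (adjusted p = 0.162). The call was also lost with library size only (adjusted p = 0.0543), with DESeq2 (0.202) and with every gene of at least 1 count (0.0868), which left 0 genes of the class called in each. None of the 3 genes of LUBAC, the linear ubiquitin ligase, was called, and RBCK1, its most abundant, had a log2 fold change of -0.14 (adjusted p = 0.149). None of the 3 other IkB genes was called either. NFKBIB, the most abundant of them, had a log2 fold change of -0.18 (adjusted p = 0.285).

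All 11 other negative regulators passed the filter, 2 rose, none fell, and the median was 0.02. The share called was 18.2%, against 21.1% of all genes tested. DESeq2 called 0 of the 11. ZC3H12A, which encodes the RNase Regnase-1 that destroys inflammatory mRNAs, had 40.8 and 35.4 CPM in OE-WT cells and 29.9 and 28.5 in CTRL cells. Its log2 fold change was 0.38 (adjusted p = 0.0067), and without OE-WT replicate 1 it was 0.28 (adjusted p = 0.107), and DESeq2 gave an adjusted p of 0.0673. RNF11, a partner of A20, had a log2 fold change of 0.28 (adjusted p = 0.0088), and its adjusted p was 0.0706 without CTRL replicate 1, 0.112 with library size only and 0.0873 with DESeq2. The other 9 regulators had log2 fold changes from -0.25 to 0.16.

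Target genes were the class with the largest number of calls. Of 27 listed, 21 passed the filter, 8 rose and 4 fell, with a median of 0.18. The share called was 57.1%, against 21.1% of all genes tested. Only the ligands, with 4 tested, had a higher share (75.0%). The list was written with earlier results of these data known, so this share is a description. DESeq2 called 5 as higher and 4 as lower, and scaling by library size only gave 6 and 5. PTGS2, which encodes cyclooxygenase-2, had 21.5 and 19.0 CPM in OE-WT cells and 9.48 and 9.25 in CTRL cells (log2 fold change 1.11, adjusted p = 6.3e-06). The neutrophil chemokine genes CXCL3 and CXCL1 had log2 fold changes of 1.06 (adjusted p = 2.8e-06) and 0.96 (adjusted p = 8.9e-05). CXCL2, also a neutrophil chemokine gene and named after its value was seen, was not called. It had 29.9 and 29.7 CPM in OE-WT cells and 23.9 and 28.7 in CTRL cells (log2 fold change 0.18, adjusted p = 0.230). CXCL8, another of them, had 60.5 and 61.0 CPM against 42.4 and 45.3 (log2 fold change 0.47, adjusted p = 0.00018). The log2 fold changes of PTGS2, CXCL3, CXCL1 and CXCL8 kept their sign with each library left out in turn.

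CCL20, a chemokine for dendritic and T cells, had 9.27 and 11.1 CPM in OE-WT cells and 4.51 and 7.55 in CTRL cells (log2 fold change 0.76, adjusted p = 0.0107). Without CTRL replicate 1 its log2 fold change was 0.43 (adjusted p = 0.199), and DESeq2 gave an adjusted p of 0.0673. CCL2 had 1 count and IL6 had 2 counts over all 4 libraries, and neither was tested. IL32, CFLAR and SDC4 also rose, and were named after their values were seen. Their log2 fold changes were 0.52 (adjusted p = 0.0021), 0.32 (adjusted p = 0.0061) and 0.24 (adjusted p = 0.0231). The 4 targets that fell were ICAM1, GADD45B, PLAU and EFNA1, named after their values were seen. PLAU, which encodes urokinase, had 15.2 and 17.7 CPM against 31.1 and 26.6, a log2 fold change of -0.81 (adjusted p = 4.6e-05). ICAM1, an adhesion receptor and a widely used NF-kB target, had 166.9 and 165.5 CPM against 209.9 and 198.1 (log2 fold change -0.30, adjusted p = 0.0024). GADD45B and EFNA1 had log2 fold changes of -0.47 (adjusted p = 0.0009) and -0.53 (adjusted p = 0.000315). These 4 genes, like PTGS2, CXCL3, CXCL1 and CXCL8, were called under all 6 alternatives. With a library left out, log2 fold changes ranged from -0.93 to -0.69 for PLAU and -0.34 to -0.25 for ICAM1. They ranged from -0.56 to -0.37 for GADD45B and from -0.55 to -0.51 for EFNA1. Target genes thus moved in both directions, 8 higher and 4 lower among those called, while the called members split 2 and 2.

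**Figure D5:**
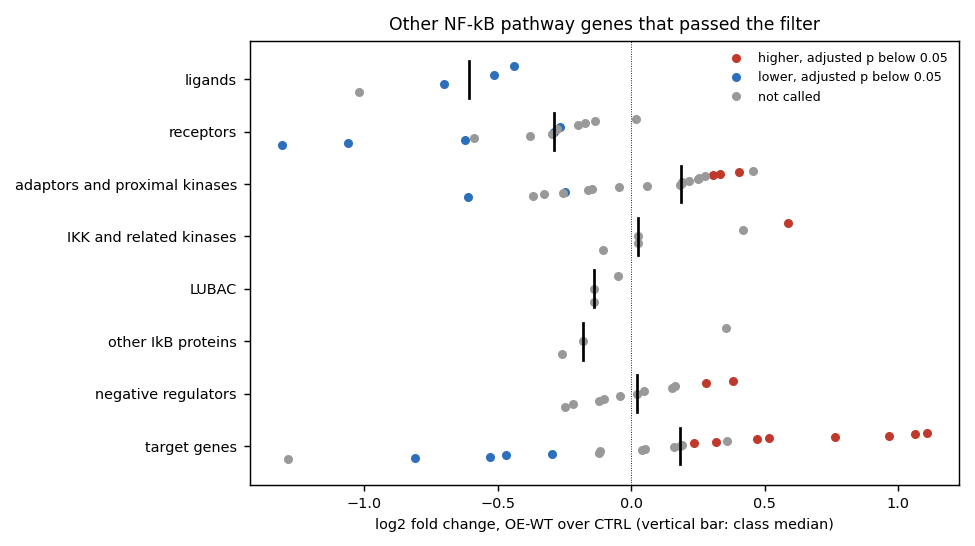
Log2 fold change, OE-WT over CTRL (horizontal axis), of the 80 other pathway genes that passed the filter, by class; each point is a gene, coloured by its call, and the vertical bars are class medians. All 4 ligands and 12 of 13 receptors lie below 0, and the target genes spread from -1.29 to 1.11.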

How the data were processed

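The authors deposited 1 table of raw read counts per gene, with 1 column per library for 2 OE-WT and 2 CTRL libraries of DLD1 cells. The study's methods name Cutadapt, HISAT2 on GRCh38 and HTSeq, and the submitters' processing notes name HISAT2 2.2.1, featureCounts 2.0.0 and DESeq2 1.34.0. The labels describe poly(A) selection and 2 replicates, and the methods describe removal of ribosomal RNA and 3 replicates. Annotation release and strand setting of the counting are not given in the sources used here, so reads shared with overlapping genes are uncertain.

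The counts were filtered by group (minimum count 10), TMM-normalized and tested with edgeR 4.0.16 in R 4.3.3 (quasi-likelihood, Benjamini-Hochberg over 14133 genes, with calls at an adjusted p below 0.05). The SE is the log2 fold change over the square root of F. Names, exon lengths and coordinates came from GENCODE 44, which matched 57532 identifiers; SOD2, a listed target, was not analysed here. Replicate numbers did not pair the libraries (correlation of deviations -0.07). Alternatives were DESeq2 1.42.0, scaling by RLE or by library size only, filters of 1 count in all or 10 in every library, a replicate block and each library left out. Floors for counts of 0 cover counting error only, whereas the 95% intervals also carry the spread between libraries that edgeR estimated.

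The members and gene lists were chosen with earlier results of these data known, so list counts are descriptions. Genes named were the members, TRMT6, TRMT61A and up to 3 called genes per class with the largest change (if none, the most abundant). CCL2, CCL20, IL6 and CXCL8 were also named, as some of the genes for which the study lists RT-qPCR primers. NXPE3 was named for its overlap with NFKBIZ, and others are stated as named after their values were seen. Figures were drawn with matplotlib 3.10.9 in Python 3.11.15.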

Additional observations from a re-analysis of the deposited data

How the results depend on the processing

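NFKBIZ was called under all 6 alternatives. NFKB2 and RELB were called under 5 of them, DESeq2 being the exception. REL was not called with library size only (adjusted p = 0.0584) or with every gene of at least 1 count (0.0614), and DESeq2 gave it no adjusted p. Members called numbered 4 in the main analysis, 1 with DESeq2 and 2 to 3 with a library left out. Pathway genes called numbered 28, 12 with DESeq2 and 18 to 28 with a library left out. Over all genes, 2976 were called, 1377 with DESeq2, 1903 to 2852 with a library left out, and 3184 with library size only (733 higher, 2451 lower). With the replicate block the counts were 4 members, 26 pathway genes and 2658 genes. The members' calls were the same, and TRAF1 and MAP3K14 lost their calls. In the target class the block gave 7 as higher and 5 as lower. MYD88, TNFRSF12A, LTBR, IL32, CFLAR, SDC4, CXCL2, CSF2 and NXPE3 were not followed singly through the alternatives. NFKBIE turned to -0.053 with library size only. With a library left out, log2 fold changes ranged from -0.00097 to 0.0798 for NFKBIE, -0.0627 to 0.0251 for NFKBIA and -0.24 to 0.15 for TNFAIP3, all uncalled. With a library left out, the lone sample of its group is assumed to vary like the other samples. The cause of the lost calls was not tested. REL and BIRC3, the members with the fewest counts, had 12 to 33 per library.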
